A study of Arabidopsis thaliana with 12 samples.

Results

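The 36 nuclear photosynthesis genes described here encode 3 classes of chloroplast proteins in Arabidopsis thaliana: 20 light-harvesting antenna proteins (14 LHCB and 6 LHCA genes), the 4 small subunits of Rubisco (RBCS) and 12 nuclear-encoded photosystem subunits (8 PSA genes of photosystem I and 4 PSB genes of photosystem II). They were taken by gene identifier from 2 count tables, of 21981 and 27612 entries, and all 36 were found and had counts above 0 in every library. RNA was sequenced from whole seedlings grown for 10 days. In the flg22 experiment, cerk1_flg22, cerk1_mock, WT_flg22 and WT_mock were the cerk1 mutant (cerk1-/-) or the wild type, given 100 nM flg22 or sterile water, with 1 library per combination. The library titled as cerk1 with flg22 carries cerk2-/- in its genotype label and is called cerk1_flg22 here from its title. In the second experiment all plants were cerk1 mutants that carried a FLAG-tagged CERK1 under the CERK1 promoter and received no treatment. CERK1_3A, CERK1_3D and CERK1_3E carried mutated forms and CERK1_WT the unmutated form, with 2 libraries per line. The labels do not say how long flg22 was applied, or how many transformants stand behind a line, and they name no separate cultures for the libraries of a line. The p-values below therefore reflect spread among these libraries only, and part of it could be technical.

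LHCB and LHCA proteins bind chlorophyll and pass light energy to photosystem II and photosystem I. The RBCS proteins join the plastid-encoded large subunit in Rubisco, the enzyme that fixes carbon dioxide, and the PSA and PSB subunits build, dock and stabilize the photosystems. All of these proteins are made in the cytosol and imported into the chloroplast, and their genes are among the most strongly transcribed nuclear genes of green tissue. CERK1 is a LysM receptor kinase needed for the response to chitin, and flg22 is a flagellin peptide perceived by the receptor kinase FLS2.

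The members include near-identical copies, and several results turn on reads that such copies could share. The coding sequences of RBCS1B and RBCS2B were 97.25% identical, those of RBCS1B and RBCS3B 96.7% and those of RBCS2B and RBCS3B 96.89%, while RBCS1A was 89.93 to 90.11% identical to the B copies. RBCS1A lies on chromosome 1 and the B copies lie side by side on chromosome 5. The first 90 coding bases of each copy follow, read from RefSeq's TAIR10.1 assembly, with capitals where a copy differs from the most common base of the set or, at a tie, at the tied bases. They are shown as 1 stretch in which the copies are nearly alike. RBCS1A is at chr1:25049160-25049249, RBCS1B at chr5:15385066-15385155, RBCS2B at chr5:15381889-15381978 and RBCS3B at chr5:15378217-15378306, all on the minus strand and all exonic.
RBCS1A: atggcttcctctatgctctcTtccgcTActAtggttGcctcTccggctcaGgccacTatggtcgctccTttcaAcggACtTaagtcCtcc
RBCS1B: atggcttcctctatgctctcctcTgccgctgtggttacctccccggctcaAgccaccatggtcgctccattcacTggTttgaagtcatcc
RBCS2B: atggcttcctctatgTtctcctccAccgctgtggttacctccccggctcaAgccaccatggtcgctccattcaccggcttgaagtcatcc
RBCS3B: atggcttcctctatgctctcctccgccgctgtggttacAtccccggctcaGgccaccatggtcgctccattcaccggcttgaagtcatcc
RBCS1A carried 14 capitals in this stretch, against 4 in RBCS1B, 3 in RBCS2B and 2 in RBCS3B. Of all 100-base windows of the longest annotated mRNA, 7.47% in RBCS1B and 12.06% in RBCS3B also occurred in the other of the pair, whereas RBCS1A and RBCS2B had no window in common with another gene.

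The antenna family holds similar groups. LHCB1.1, LHCB1.2 and LHCB1.3, which encode the most abundant antenna protein of photosystem II, are neighbours on chromosome 1 and were 95.65 to 96.39% identical in coding sequence. LHCB2.1 and LHCB2.2 were 96.62% identical and shared 9.87% and 12.36% of their 100-base windows. The starts of the LHCB1 copies are shown for the same reason, LHCB1.1 at chr1:10475803-10475892 and LHCB1.2 at chr1:10473157-10473246 on the minus strand and LHCB1.3 at chr1:10478071-10478160 on the plus strand, with the same meaning of capitals.
LHCB1.1: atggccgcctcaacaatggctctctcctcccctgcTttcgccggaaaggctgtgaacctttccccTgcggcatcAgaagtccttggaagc
LHCB1.2: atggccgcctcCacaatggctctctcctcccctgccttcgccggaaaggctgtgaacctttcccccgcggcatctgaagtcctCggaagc
LHCB1.3: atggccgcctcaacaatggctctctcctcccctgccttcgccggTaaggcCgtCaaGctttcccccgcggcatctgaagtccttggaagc
Values of single RBCS and LHCB1 or LHCB2 copies are therefore uncertain where reads could be assigned to either copy, and how multiply placed reads were counted is not given in the sources used here.

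The 4 RBCS promoters shared the letters of the I-box core, known as a light-regulatory element. The I-box core GATAAG stood within the 250 bases before the transcript start of 4 of 4 RBCS genes, on either strand, against 12.6% of 27443 nuclear promoters of the same length, 6 of the 12 photosystem genes and 4 of the 20 antenna genes. The start used was the annotated one nearest the coding sequence, and in RBCS1A, RBCS1B and RBCS3B a longer annotated transcript begins farther upstream and covers part of the window. In these genes the core printed below lies within the span of that longer transcript. The copies nearest the start are printed with 12 bases on each side and the core in capitals, RBCS1A from chr1:25049462-25049491, RBCS1B from chr5:15385303-15385332, RBCS2B from chr5:15382148-15382177 and RBCS3B from chr5:15378477-15378506, minus strand.
RBCS1A: gcggttcaagccGATAAGggtctcaacacc
RBCS1B: aaagaaagataaGATAAGggtgtcaacacc
RBCS2B: gtggtccaaatcGATAAGggtgtcaacacc
RBCS3B: gtggtgcgtaccGATAAGggtgtcaacacc
The core began 55, 73, 94 and 78 bases before the start in the order printed, and the 12 bases after it were the same in the 3 B copies and matched at 11 of 12 positions in RBCS1A. Since the B copies are neighbouring genes of near-identical coding sequence, these are not 4 independent occurrences. The G-box CACGTG was found in 3 of 4 RBCS promoters and 27.8% of the members, against 6.7% of all promoters. CCAATC was found in 10 of 20 antenna promoters and in 0 of 4 RBCS promoters, against 10.4% of all promoters. A match describes the letters of the window and is not evidence that a factor binds there.

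Levels in the flg22 experiment are CPM, counts scaled to library depth with TMM factors, and levels of different genes are compared only as CPM per kilobase of the deposited gene length. Library totals were 18159354 to 22663236 counts here and 36013439 to 41288819 in the lines. The flg22 libraries carried their treatment: FRK1, a receptor-like kinase gene induced by flg22, reached 140 CPM in cerk1_flg22, against 0.603 CPM in cerk1_mock, and 87.1 CPM in WT_flg22, against 0.151 CPM in WT_mock, and 5 of 5 flg22 markers were at least 2-fold higher in both genotypes. CERK1 itself was at 119 CPM in cerk1_flg22 and 9.70 CPM in cerk1_mock, against 273 CPM in WT_flg22 and 24.9 CPM in WT_mock. Whole seedlings include roots, and 13 root markers summed to 103 CPM in cerk1_flg22, 69.4 in cerk1_mock, 118 in WT_flg22 and 137 in WT_mock. In whole tissue, fewer cells of a type and less RNA per cell cannot be told apart.

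As a share of all counts, the 36 members took 7.13% in cerk1_flg22 and 9.82% in cerk1_mock, and 7.51% in WT_flg22 and 9.43% in WT_mock. Levels differed widely among the members. RBCS1A was the highest, with a mean over the 4 libraries of 14235 CPM per kilobase, followed by LHCB1.3 with 12621 and RBCS3B with 6187. Among the LHCA genes LHCA2 led with 2008 CPM per kilobase, among the PSA genes PSAF with 2081 and among the PSB genes PSBO1, a protein that stabilizes the oxygen-evolving manganese cluster, with 2711. LHCB4.3 and LHCB2.3 were the lowest, with 34.9 and 43.0 CPM per kilobase.

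With TMM factors, flg22 left the photosynthesis genes of the wild type close to their mock levels. With library totals instead, 33 of 36 members were lower in WT_flg22 (median -0.31, beside -0.28 over all genes), and LHCA6 passed 2-fold. The values that follow use TMM factors. No member was 2-fold higher or lower in WT_flg22 than in WT_mock, a size that 13.2% of the 18872 genes kept reached upward and 5.79% downward. In all, 17 members were higher and 19 lower, and the median log2 ratio of CPM + 1 was -0.05 for the antenna genes, -0.12 for the RBCS genes and 0.13 for the photosystem genes, beside -0.03 over all genes. At a limit of 1.5-fold, no member was higher, against 20.5% of all genes, and 3 were lower, against 16.6%: LHCA6, RBCS1B and PSAD1, with log2 ratios of -0.81, -0.64 and -0.61. The depth gave a median half-width of the 95% counting interval of 0.0217 on the log2 scale, but with 1 library per combination no difference has a replicate check and none was tested.

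In cerk1, nearly all members were lower with flg22. Of the 36, 33 were lower and 3 higher in cerk1_flg22 than in cerk1_mock, and the class medians were -0.24 for the antenna genes, -0.44 for the RBCS genes and -0.28 for the photosystem genes, beside -0.01 over all genes, of which 50.5% were lower. The size was small: 2 members, RBCS1B and LHCA6, were at least 2-fold lower, against 5.38% of all genes, and none was 2-fold higher, against 15.2%. At 1.5-fold the same counts held, 2 lower and 0 higher, where 16.5% and 23.8% of all genes passed. These counts rest on the scaling. With library totals in place of TMM factors the median of all genes moved to -0.28 in the wild type and -0.17 in cerk1, and then 33 of 36 members were lower in WT_flg22 and 36 of 36 in cerk1_flg22. Root markers did not move in the same way in the genotypes: 9 of 13 were higher in cerk1_flg22 than in cerk1_mock (median log2 ratio 0.43) and 10 of 13 were lower in WT_flg22 than in WT_mock (median -0.48), and their part in the members' values was not tested.

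**Figure D1:**
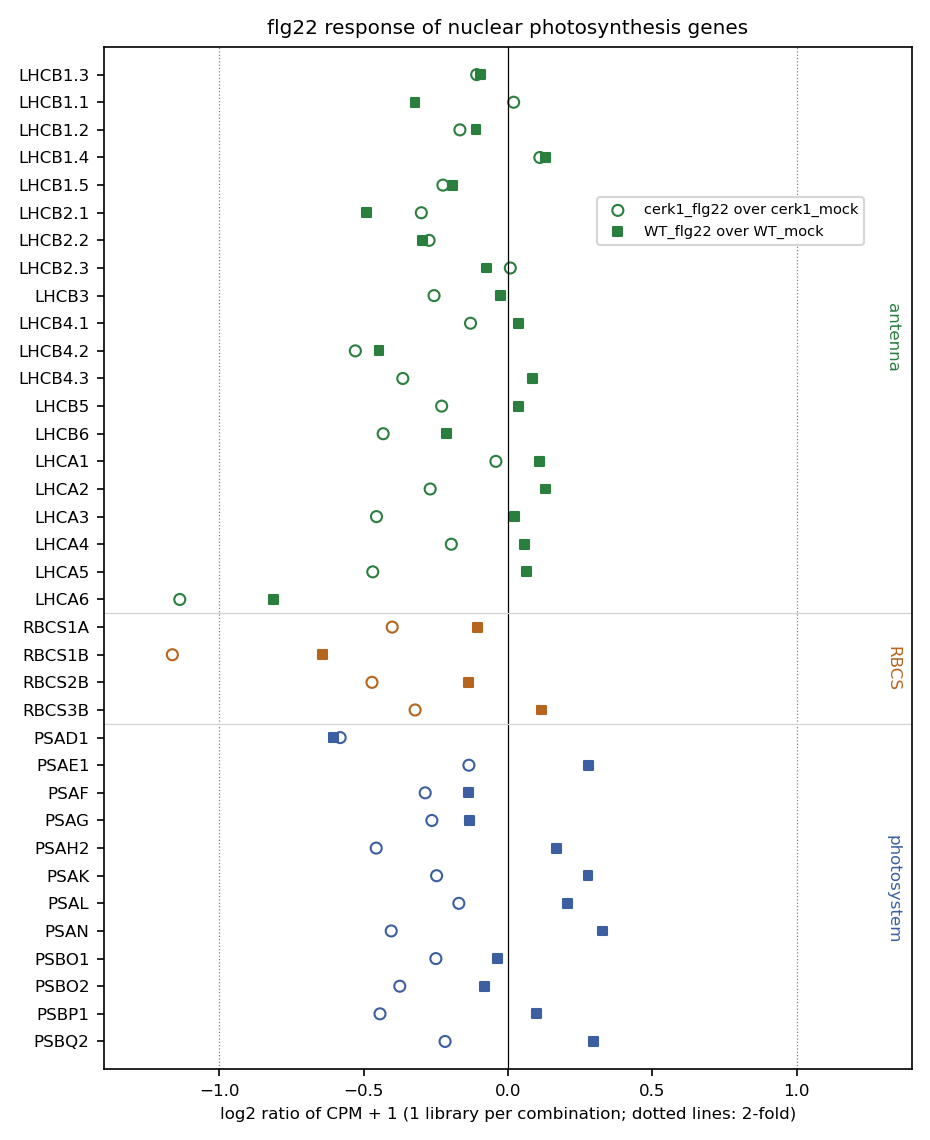
log2 ratio of CPM + 1 with flg22 over mock for each of the 36 members, in cerk1 (open circles) and the wild type (filled squares), coloured by class, with 1 library per combination. Most circles lie left of their squares, and LHCA6 and RBCS1B lie farthest left in both genotypes.

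LHCA6 and RBCS1B had the 2 lowest ratios in both genotypes, which share no library. LHCA6 (AT1G19150) encodes a minor antenna protein that links photosystem I to the chloroplast NADH dehydrogenase-like complex. It was at 54.5 CPM in cerk1_flg22 and 121 CPM in cerk1_mock, and at 57.9 CPM in WT_flg22 and 102 CPM in WT_mock. The flg22 libraries were thus both below the mock libraries, with a ratio of 0.450 in cerk1 (95% exact binomial interval 0.419 to 0.484) and 0.565 in the wild type (0.525 to 0.608). These intervals cover counting error only.

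RBCS1B (AT5G38430) was at 1157 CPM in cerk1_flg22 and 2592 CPM in cerk1_mock, and at 1582 CPM in WT_flg22 and 2470 CPM in WT_mock. Its flg22 libraries were again below both mock libraries, at ratios of 0.446 (interval 0.439 to 0.453) in cerk1 and 0.641 (0.632 to 0.650) in the wild type. The other RBCS genes were nearer their mock levels. RBCS1A (AT1G67090) was at 12819 CPM in cerk1_flg22 and 16930 CPM in cerk1_mock, and at 13780 CPM in WT_flg22 and 14836 CPM in WT_mock. RBCS2B was at 2225 CPM in cerk1_flg22 and 3084 CPM in cerk1_mock, and at 2825 CPM in WT_flg22 and 3104 CPM in WT_mock. RBCS3B differed in direction, with 5084 CPM in cerk1_flg22 and 6356 CPM in cerk1_mock but 6911 CPM in WT_flg22 and 6370 CPM in WT_mock, although with library totals it was lower in both genotypes. Since RBCS1B and RBCS3B share sequence windows, the split of reads between them is uncertain.

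Further low ratios are given for 3 genes named after their values were seen. PSAD1, the subunit on which ferredoxin docks at photosystem I, had log2 ratios of -0.58 in cerk1 and -0.61 in the wild type and stood at rank 3 from the bottom in both genotypes. LHCB4.2, a linker antenna protein of photosystem II, had -0.53 in cerk1 and -0.45 in the wild type. LHCB2.1 had -0.30 in cerk1 and -0.49 in the wild type. Across the 36 members the ratios of cerk1 and of the wild type had a Pearson r of 0.587, a correlation across genes, which are not independent replicates. The lowest genes in both genotypes, LHCA6 and RBCS1B, are among these points, and no r was computed without them or over all genes. Of all genes, 50.5% were lower in cerk1 and 51.9% in the wild type, and the share lower in both was not counted. Of the members, 17 were lower in both genotypes and 1, LHCB1.4, was higher in both, with log2 ratios of 0.11 in cerk1 and 0.13 in the wild type, whereas with library totals no member was higher in both.

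With TMM factors the most abundant antenna gene, LHCB1.3, barely moved. With library totals its log2 ratios were -0.29 in cerk1 and -0.37 in the wild type. LHCB1.3 (AT1G29930) was at 12681 CPM in cerk1_flg22 and 13672 CPM in cerk1_mock, and at 12740 CPM in WT_flg22 and 13611 CPM in WT_mock, so the flg22 libraries were both slightly below the mock libraries. LHCB1.5 was at 3450 CPM in cerk1_flg22 and 4034 CPM in cerk1_mock, and at 3744 CPM in WT_flg22 and 4281 CPM in WT_mock. Of the 14 LHCB genes, 11 were lower with flg22 in cerk1 and 10 in the wild type. Of the LHCA genes, 6 of 6 were lower in cerk1 with a median of -0.36, whereas 5 of 6 were higher in the wild type with a median of 0.06. With library totals 0 of 6 were higher in the wild type and the medians were -0.54 in cerk1 and -0.22 in the wild type, so the opposite signs rest on the scaling.

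LHCA2, an antenna protein of photosystem I, was at 1886 CPM in cerk1_flg22 and 2274 CPM in cerk1_mock, and at 2471 CPM in WT_flg22 and 2258 CPM in WT_mock. LHCA1 was at 1973 CPM in cerk1_flg22 and 2031 CPM in cerk1_mock, and at 2258 CPM in WT_flg22 and 2094 CPM in WT_mock. The cerk1_flg22 library was the lowest and the WT_flg22 library the highest of the 4 for both genes.

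In cerk1, 12 of 12 photosystem genes were lower with flg22, while 7 of 12 were higher in the wild type, or 3 of 12 with library totals. PSAN (AT5G64040), a lumenal subunit of photosystem I near the plastocyanin docking site, had the largest difference of response, with 820 CPM in cerk1_flg22 and 1086 CPM in cerk1_mock against 1303 CPM in WT_flg22 and 1037 CPM in WT_mock. PSAH2, a subunit at the side where mobile antenna docks, was at 346 CPM in cerk1_flg22 and 475 CPM in cerk1_mock, and at 502 CPM in WT_flg22 and 447 CPM in WT_mock. The response of cerk1 minus that of the wild type was -0.73 for PSAN and -0.62 for PSAH2 on the log2 scale, and neither difference could be tested. Over all members this difference was negative for 31 and positive for 5, where 51% of all genes were negative and 49% positive. With library totals it was negative for 26 and positive for 10, where 40.4% and 59.6% of all genes were. With TMM factors no member reached 2-fold, which 0.689% of all genes did downward and 4.04% upward. PSAN and PSAH2 were the 2 past 1.5-fold downward, against 5.51% of all genes, with none upward, against 10.6%.

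PSAL, which sits beside PSAH in photosystem I, was at 1787 CPM in cerk1_flg22 and 2012 CPM in cerk1_mock, and at 2184 CPM in WT_flg22 and 1892 CPM in WT_mock. PSAF, the subunit that helps bind plastocyanin, was at 1668 CPM in cerk1_flg22 and 2036 CPM in cerk1_mock, and at 2005 CPM in WT_flg22 and 2206 CPM in WT_mock. PSBO1 was at 2942 CPM in cerk1_flg22 and 3499 CPM in cerk1_mock, and at 3482 CPM in WT_flg22 and 3570 CPM in WT_mock. PSBP1, another extrinsic protein of the oxygen-evolving complex, was at 1946 CPM in cerk1_flg22 and 2646 CPM in cerk1_mock, and at 2679 CPM in WT_flg22 and 2502 CPM in WT_mock. All 4 genes were lowest in cerk1_flg22.

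Between genotypes, with TMM factors, the members split evenly in the mock libraries, while most were slightly lower in cerk1_flg22 than in WT_flg22. In cerk1_mock against WT_mock, 18 members were higher and 18 lower, and none was 2-fold different, where 0.302% of all genes were 2-fold higher or more and 4.01% were 2-fold lower or more. None passed 1.5-fold, beside 4.06% of all genes upward and 11% downward. The largest ratios were those of LHCB4.3, a minor linker antenna gene, with 46.2 CPM in cerk1_mock and 36.1 CPM in WT_mock, and LHCB3, part of the trimeric antenna, with 1220 CPM in cerk1_mock and 1548 CPM in WT_mock. In cerk1_flg22 against WT_flg22, 35 members were lower and 1, LHCB1.1, was higher, with a median log2 ratio of -0.27 beside -0.01 over all genes; none was 2-fold lower, against 0.97% of all genes, or higher, against 0.641%. At 1.5-fold 1 was lower, PSAN, against 4.68% of all genes, and none higher, against 3.49%. LHCB3 was at 1021 CPM in cerk1_flg22, against 1519 CPM in WT_flg22, and PSAN had the largest log2 ratio, -0.67. With library totals, 29 were lower and 7 higher, where 33.9% of all genes were lower and 66.1% higher. These comparisons share libraries with the responses above and are not independent of them. Among the root markers 13 of 13 were lower in cerk1_mock than in WT_mock (7 of them 2-fold or more), and 7 of 13 were lower in cerk1_flg22 than in WT_flg22. Of 7 shoot epidermis, guard cell and phloem markers, 6 were lower in cerk1_mock than in WT_mock (median log2 ratio -0.59, none 2-fold). In cerk1_flg22 against WT_flg22, 5 of these 7 were lower (median -0.26).

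The summed CPM of each class gives the same comparison by class, as relative levels that rest on the TMM factors. The antenna genes summed to 37145 CPM in cerk1_flg22 and 42137 CPM in cerk1_mock, and to 41165 CPM in WT_flg22 and 43060 CPM in WT_mock. The RBCS genes summed to 21285 CPM in cerk1_flg22 and 28963 CPM in cerk1_mock, and to 25098 CPM in WT_flg22 and 26779 CPM in WT_mock. The photosystem genes summed to 15068 CPM in cerk1_flg22 and 18531 CPM in cerk1_mock, and to 19029 CPM in WT_flg22 and 18430 CPM in WT_mock. The cerk1_flg22 library was the lowest of the 4 for each class, and only for RBCS did the 2 mock libraries differ by more than the WT_flg22 library differed from WT_mock. As shares of all counts, without TMM factors, the photosystem genes took 1.68% in WT_flg22 and 1.97% in WT_mock, the reverse order. The antenna genes took 3.6% in cerk1_flg22 and 3.63% in WT_flg22, and the LHCB genes among them 2.89% and 2.83%.

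**Figure D2:**
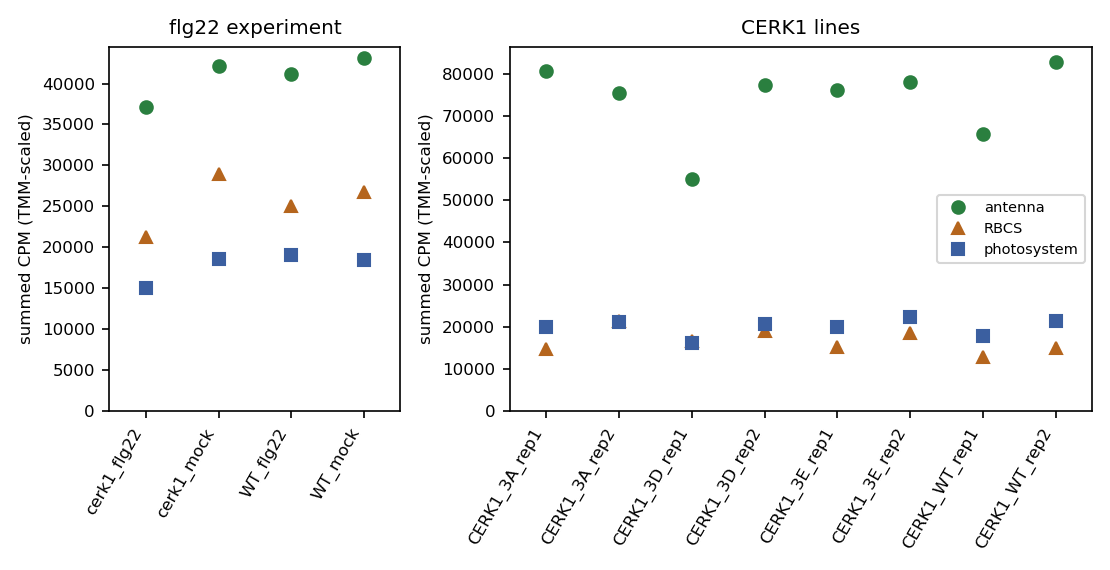
Summed CPM of the antenna, RBCS and photosystem genes in each library of the flg22 experiment (left) and of the CERK1 lines (right), each point being 1 library. The cerk1_flg22 points are the lowest of the left panel in each class, and the antenna sum of CERK1_3D replicate 1 is the lowest of the right panel.

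Other genes of the pathway were read from lists, with TMM factors, beside 50.5% of all genes lower in cerk1 and 51.9% in the wild type. With library totals the median of all genes moved to -0.17 in cerk1 and -0.28 in the wild type. The lists were not recounted with library totals, so their signs rest on the scaling. Of the nuclear photosystem subunits outside the 36, 12 of 12 measured were lower with flg22 in cerk1 (median log2 ratio -0.44) and 7 of 12 in the wild type (median -0.07), and only PSBP2, at 0.302 CPM in cerk1_flg22 and 1.91 CPM in cerk1_mock, passed 2-fold. Of 14 Calvin cycle genes, 14 were lower in cerk1 (median -0.53) and 9 in the wild type (median -0.08), with none past 2-fold. Of 11 genes of electron transport and ATP synthase, 11 were lower in cerk1 (median -0.46) and 4 in the wild type (median 0.20), again with none past 2-fold. The 8 proteins related to the antenna, such as PSBS and the ELIPs, had medians of -0.30 in cerk1 and -0.13 in the wild type and no member past 2-fold.

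Of 10 regulators of photosynthesis genes, GNC, GLK2 and GNL were at least 2-fold lower in each genotype, where 5.38% of all genes were in cerk1 and 5.79% in the wild type. The medians of the regulators were -0.82 in cerk1 and -0.50 in the wild type, and 2 of 10 were higher in cerk1. GNC and GNL are GATA factors of chloroplast development, and GLK2 is a GARP factor that activates antenna and chlorophyll genes. GNC was at 9.06 CPM in cerk1_flg22 and 48.7 CPM in cerk1_mock, and at 8.61 CPM in WT_flg22 and 33.4 CPM in WT_mock. GLK2 was at 17.97 CPM in cerk1_flg22 and 49.8 CPM in cerk1_mock, and at 13.97 CPM in WT_flg22 and 42.5 CPM in WT_mock, whereas its close relative GLK1, chosen after its values were seen, was at 63.8 CPM in cerk1_flg22 and 87.8 CPM in cerk1_mock, and at 78.2 CPM in WT_flg22 and 90.2 CPM in WT_mock. GNL had log2 ratios of -1.26 in cerk1 and -1.20 in the wild type.

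In chlorophyll synthesis, 2 of 12 genes were at least 2-fold lower in each genotype, GUN4 and CAO, and the medians of the list were -0.59 in cerk1 and -0.30 in the wild type. GUN4, which stimulates magnesium chelatase, was at 15.1 CPM in cerk1_flg22 and 40.6 CPM in cerk1_mock, and at 8.66 CPM in WT_flg22 and 41.3 CPM in WT_mock. CAO, the enzyme that makes the chlorophyll b of the antenna, was at 19.0 CPM in cerk1_flg22 and 51.2 CPM in cerk1_mock, and at 18.1 CPM in WT_flg22 and 50.01 CPM in WT_mock. Of 7 genes of chlorophyll breakdown and senescence, NYE1, a magnesium dechelatase that starts chlorophyll breakdown, was at least 2-fold higher in both genotypes, with 25.7 CPM in cerk1_flg22 and 9.55 CPM in cerk1_mock and 29.5 CPM in WT_flg22 and 8.12 CPM in WT_mock. NYC1, a chlorophyll b reductase, was at 104 CPM in cerk1_flg22 and 310 CPM in cerk1_mock, and at 165 CPM in WT_flg22 and 307 CPM in WT_mock. SAG13 passed 2-fold in cerk1, at 2.47 CPM in cerk1_flg22 and 0.101 CPM in cerk1_mock.

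**Figure D3:**
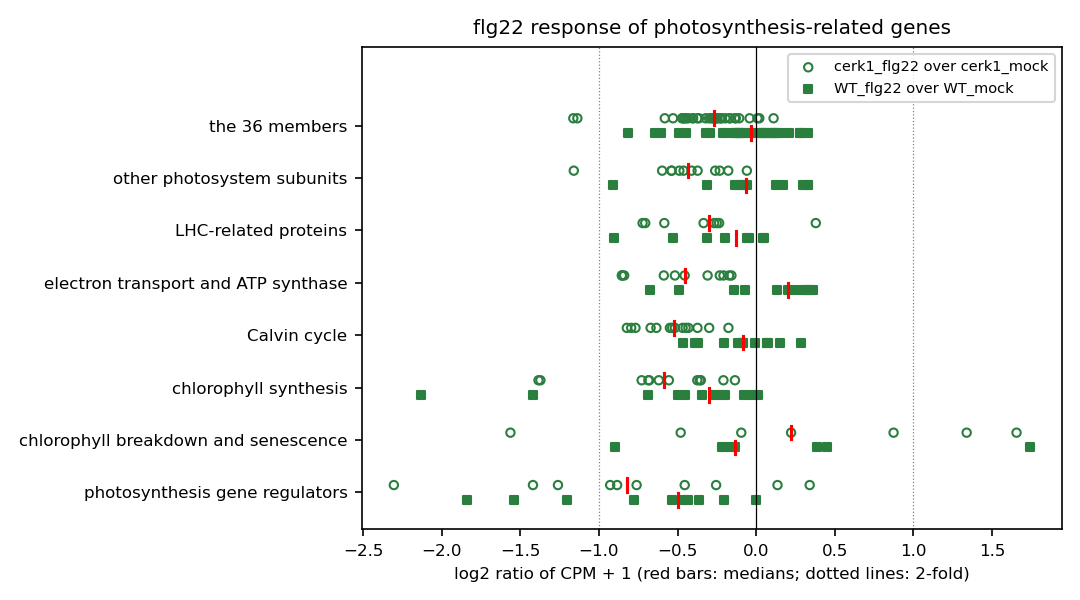
log2 ratio of CPM + 1 with flg22 over mock for the 36 members and for 7 lists of other photosynthesis-related genes, in cerk1 (open circles, upper row of each pair) and the wild type (filled squares, lower row), with red bars at the medians. GNC, GLK2, GNL, GUN4 and CAO lie beyond the left 2-fold line in both genotypes, and of the 36 members RBCS1B and LHCA6 lie beyond it in cerk1.

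In the untreated lines, no member was called between any 2 lines by edgeR's quasi-likelihood test at an adjusted p of 0.05. The same test called few genes of any kind, 1 of 21274 (0.0047%) in CERK1_3A over CERK1_WT, 6 (0.0282%) in CERK1_3D over CERK1_WT, 1 (0.0047%) in CERK1_3E over CERK1_WT, 5 (0.0235%) in CERK1_3D over CERK1_3A, 2 (0.0094%) in CERK1_3E over CERK1_3A and 3 (0.0141%) in CERK1_3E over CERK1_3D. At an unadjusted p under 0.05 the members numbered 1, 0, 0, 6, 0 and 2 in the same order, where 3.07%, 2.87%, 3.37%, 5.78%, 2.45% and 4.03% of all genes passed. DESeq2 called 0 members in 5 comparisons and 1, LHCB1.4, in CERK1_3D over CERK1_3A. None of the genes of the pathway lists was called.

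Over CERK1_WT the median log2 fold changes of the antenna, RBCS and photosystem genes were 0.06, 0.32 and 0.05 in CERK1_3A, -0.12, 0.36 and -0.07 in CERK1_3D and 0.08, 0.31 and 0.06 in CERK1_3E, beside 0.00 over all genes in each. The antenna genes summed to 78007 ± 3721 CPM in CERK1_3A, 66160 ± 15763 in CERK1_3D, 77139 ± 1431 in CERK1_3E and 74369 ± 12044 in CERK1_WT (SD, n = 2 each). The RBCS genes summed to 18018 ± 4658 CPM in CERK1_3A, 17814 ± 1833 in CERK1_3D, 16879 ± 2426 in CERK1_3E and 13915 ± 1558 in CERK1_WT. The photosystem genes summed to 20557 ± 877 CPM in CERK1_3A, 18350 ± 3283 in CERK1_3D, 21043 ± 1707 in CERK1_3E and 19574 ± 2437 in CERK1_WT. For the antenna and photosystem genes the SD of CERK1_WT alone exceeded the difference of each mutated line from it. For RBCS the mutated lines were higher by more than the SD of CERK1_WT, while the SD of CERK1_3A was larger than its own difference. RBCS2B and RBCS3B, however, had libraries of a line at least 2-fold apart. RBCS1A and RBCS1B had log2 fold changes over CERK1_WT of 0.52 and 0.11 in CERK1_3A, 0.04 and -0.30 in CERK1_3D and 0.04 and 0.03 in CERK1_3E. Members whose libraries did not overlap between 2 lines numbered 6 higher and 1 lower in CERK1_3A over CERK1_WT (16.3% and 15.9% of all genes), 2 and 1 in CERK1_3D over CERK1_WT (12.7% and 12.6%) and 1 and 0 in CERK1_3E over CERK1_WT (16.1% and 16.7%). Between the mutated lines they numbered 2 higher and 9 lower in CERK1_3D over CERK1_3A (15.4% and 16.7%), 1 and 1 in CERK1_3E over CERK1_3A (15.5% and 16.8%) and 11 and 1 in CERK1_3E over CERK1_3D (14.9% and 15.2%).

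Of the 36 members, 30 had their lowest CPM of the 8 libraries in CERK1_3D replicate 1, against 16.9% of all genes tested. Their highest CPM fell in CERK1_3E replicate 2 for 16 members (12.7% of all genes) and in CERK1_WT replicate 2 for 10. The summed CPM of the members was 1.34-fold apart between the libraries of CERK1_3D, 1.24-fold in CERK1_WT, 1.07-fold in CERK1_3E and 1.02-fold in CERK1_3A. AT2G01021, an entry beside a ribosomal RNA gene of chromosome 2 that was picked after its values were seen, was at 3347 CPM in CERK1_3D replicate 1 and between 0.0264 and 694 CPM in the other 7 libraries. Its part in the members' values was not tested, and with it and its 2 neighbours left out no member was called in any of the 6 comparisons.

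Most members moved together from library to library. The log2 CPM of a member and the mean of the other 35 had a median Pearson r of 0.885 over the 8 libraries. All genes tested, the members included, had a median r of -0.024 with the mean of all 36 members. An r of at least 0.9 was reached by 13 members, against 1.2% of all genes. The points share libraries and scaling, so this is a description. The photosystem gene PSAH2 (0.983) and the antenna genes LHCA4 (0.978) and LHCB3 (0.972) followed the rest most closely. Under 0.5 were 6 members: LHCB4.3, LHCA3 and all 4 RBCS genes, with 0.301 for RBCS1A, 0.105 for RBCS2B, 0.059 for RBCS3B and 0.020 for RBCS1B.

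**Figure D4:**
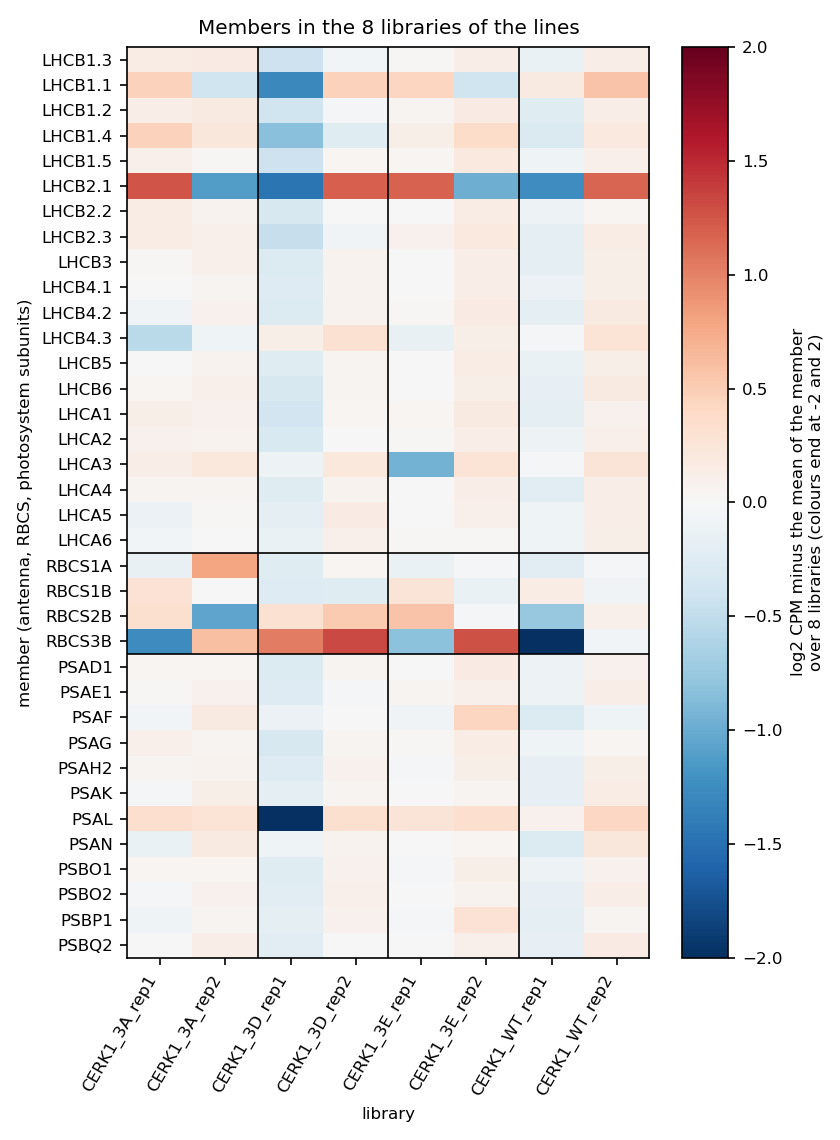
log2 CPM of each member minus its mean over the 8 libraries of the lines, with members in rows and libraries in columns. The column of CERK1_3D replicate 1 is blue for 30 members at their lowest value, and LHCB2.1, RBCS3B and PSAL stand out as rows with libraries of a line far apart.

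Libraries of the same line were at least 2-fold apart for 6 members: LHCB1.1, LHCB2.1, LHCA3, RBCS2B, RBCS3B and PSAL. Across all genes tested that held for 3.29%, and for 3.42% of genes with a mean of at least 100 CPM. Within lines the members concerned numbered 3 in CERK1_3A, 3 in CERK1_3D, 3 in CERK1_3E and 2 in CERK1_WT, beside 0.921%, 1.76%, 0.912% and 1.02% of all genes.

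LHCB2.1 (AT2G05100) had levels of 2 kinds. It was at 3697 and 710 CPM in CERK1_3A, 565 and 3553 CPM in CERK1_3D, 3488 and 785 CPM in CERK1_3E, and 650 and 3480 CPM in CERK1_WT, giving replicate 1 first. Each line thus had 1 library at 3480 CPM or more and 1 at 785 CPM or less, and all lines overlapped. LHCB2.2, its near-identical copy, named here for comparison, stayed between 2389 and 3303 CPM in the 8 libraries.

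RBCS3B was at 1106 and 3986 CPM in CERK1_3A, 5362 and 6623 CPM in CERK1_3D, 1498 and 6378 CPM in CERK1_3E, and 621 and 2540 CPM in CERK1_WT. Both CERK1_3D libraries were above both CERK1_WT libraries, as held for 12.7% of all genes, while the other lines overlapped CERK1_WT. It had the largest fold change of any member over CERK1_WT in the 3 mutated lines, with a log2 fold change of 1.92 ± 0.88 in CERK1_3D (SE, edgeR's quasi-likelihood test, adjusted p = 0.9999). RBCS2B was at 931 and 360 CPM in CERK1_3A, 920 and 1069 CPM in CERK1_3D, 1106 and 734 CPM in CERK1_3E, and 441 and 801 CPM in CERK1_WT. RBCS1A was at 6052 and 11500 CPM in CERK1_3A and between 5677 and 6840 CPM in the other 6 libraries.

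Near-identical copies were also summed, with LHCB1.4 and LHCB1.5 as a less alike pair, a step chosen after the data were seen. RBCS1B, RBCS2B and RBCS3B together ranged 1.735-fold over the 8 libraries, against 10.7-fold for RBCS3B, 3.07-fold for RBCS2B and 1.46-fold for RBCS1B alone, with 8672 and 9812 CPM in CERK1_3A, 10840 and 12269 CPM in CERK1_3D, 9080 and 12083 CPM in CERK1_3E, and 7070 and 8545 CPM in CERK1_WT. Each library of the mutated lines was above both CERK1_WT libraries in this sum, by little in CERK1_3A (8672 against 8545 CPM). Taking each line alone, this held for 16.3% of all genes in CERK1_3A, 12.7% in CERK1_3D and 16.1% in CERK1_3E. Its log2 fold change over CERK1_WT was 0.24 ± 0.16 in CERK1_3A, 0.57 ± 0.16 in CERK1_3D and 0.44 ± 0.16 in CERK1_3E (SE), and none passed edgeR's test after adjustment over all genes (adjusted p of 0.9998 to 0.9999). LHCB2.1 and LHCB2.2 together ranged 2.367-fold, against 6.55-fold and 1.38-fold alone. LHCB1.1, LHCB1.2 and LHCB1.3 together ranged 1.711-fold, against 3.64-fold, 1.504-fold and 1.48-fold alone. LHCB1.4 and LHCB1.5, whose coding sequences were 91.42% identical, together ranged 1.573-fold, against 2.46-fold and 1.52-fold alone.

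PSAL was at 1873 and 1802 CPM in CERK1_3A, 370 and 1854 CPM in CERK1_3D, 1771 and 1871 CPM in CERK1_3E, and 1587 and 1984 CPM in CERK1_WT. The low value was that of CERK1_3D replicate 1 alone. Without the other CERK1_3D library PSAL was called in CERK1_3D over CERK1_WT (log2 fold change -2.27, adjusted p = 0.008212 in edgeR's test), and without CERK1_3D replicate 1 its fold change was 0.05. LHCA3 likewise was at 1150 CPM in CERK1_3E replicate 1 and between 2057 and 2673 CPM in the other 7 libraries. Neither gene had a 100-base window in common with another gene.

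**Figure D5:**
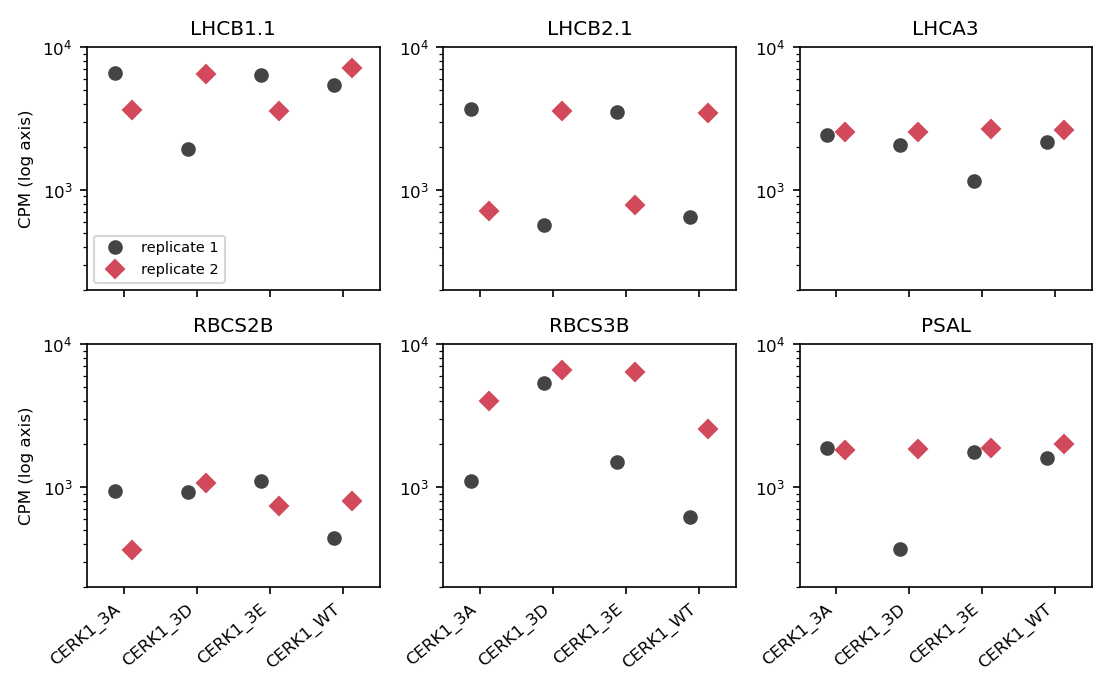
CPM on a log axis of the 6 members whose libraries of a line were at least 2-fold apart, by line, with circles for replicate 1 and diamonds for replicate 2. LHCB2.1 has 1 library at 3480 CPM or more and 1 at 785 CPM or less in each line, and PSAL has 1 low value, 370 CPM, in CERK1_3D.

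The deposited gene lengths differed between the tables. In the table of the lines, 21 of 36 members had a gene length at least 1.2 times that in the flg22 table, and 5 of the 6 members with libraries far apart were among them, LHCB1.1 being the exception. LHCB2.1 had a length of 4653 bases there against 1101 in the flg22 table, and PSAL 4143 against 984. A longer model did not always go with a gap: RBCS1B had the largest length ratio, with 21140 bases against 808, and its libraries of a line were at most 1.302-fold apart. Among genes with a mean of at least 100 CPM, 5.11% of those with longer models had libraries of a line 2-fold apart, against 1.33% of those without. The part of the gene models in these values was not tested.

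LHCB1.4 was the member with the smallest p. It was at 387 and 588 CPM in CERK1_3D, and at 951 and 815 CPM in CERK1_3A, so both CERK1_3D libraries were below both CERK1_3A libraries, as held for 16.7% of all genes. Its log2 fold change of -0.86 ± 0.23 (SE) had an adjusted p of 0.7631 in edgeR's test and of 0.005801 in DESeq2. In CERK1_3E it was at 751 and 895 CPM and in CERK1_WT at 570 and 797 CPM. LHCB4.3 went the other way, with 74.4 and 84.7 CPM in CERK1_3D and 47.3 and 64.7 CPM in CERK1_3A, a log2 fold change of 0.51 ± 0.17 (adjusted p = 0.8031 in edgeR's test).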

How the data were processed

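Both deposited tables hold whole-number counts per gene, to which the authors applied no normalization, with gene lengths beside them. The genome build named in the submitters' processing notes is TAIR10. Aligner, counter and strand setting are not given in the sources used here. All 12 sample columns were used. Counts were scaled with TMM within each table (edgeR 4.0.16, R 4.3.3). In the flg22 experiment, 18872 genes with at least 1 CPM in at least 1 library were kept, ratios were formed on CPM + 1 and 2-fold was the rule of size. Intervals are exact Clopper-Pearson at 95% and, as reads carry no molecular identifiers, cover counting error only. For the lines, all 8 libraries entered edgeR's quasi-likelihood test, with line as its single term, after filterByExpr (21274 genes, 4 residual degrees of freedom), two-sided, with Benjamini-Hochberg adjustment over all genes of a comparison; DESeq2 1.42.0 was an alternative. The procedure was tested on simulated counts. Replicate libraries differed by more than counting noise in each line.

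The members and gene lists were chosen with earlier results of these data known. Values by library are given for the 2 members of each family highest per kilobase, members past 2-fold or called, and the 2 largest changes of each comparison; other genes come from the lists, at most 3 per list, past 2-fold or called. Exceptions are marked. Alternatives were other scalings (library totals, RLE), added constants, filters, a 1.5-fold limit, organelle genes left out, fewer libraries in the fit, a replicate block and each library left out. Added after seeing the data were sums of near-identical copies and of LHCB1.4 with LHCB1.5. Also added were leaving out the 6 members with libraries far apart and leaving out 3 entries beside ribosomal RNA genes. Sequences, gene positions and symbols come from RefSeq's TAIR10.1; the tables give no coordinates. All 36 identifiers matched.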

Additional observations from a re-analysis of the deposited data

Results flagged for a closer look

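Several responses to flg22 had opposite signs in the genotypes, with 1 library per combination, so that none of these differences was tested. The photosystem genes as a class had a median log2 ratio of -0.28 in cerk1 and 0.13 in the wild type. The difference of response, cerk1 minus wild type on the log2 scale, was -0.73 for PSAN, -0.62 for PSAH2, -0.54 for PSBP1, -0.45 for LHCB4.3, -0.44 for RBCS3B, -0.40 for LHCA2, -0.38 for PSAL and -0.15 for LHCA1, each with a lower level in cerk1_flg22 than in cerk1_mock and a higher level in WT_flg22 than in WT_mock. With library totals in place of TMM factors the photosystem median of the wild type was -0.14, so that the class no longer had opposite signs in the genotypes. Of the 8 genes, PSAN alone kept opposite signs then, with -0.58 in cerk1 and 0.05 in the wild type, and the other 7 were lower with flg22 in both genotypes. The 8 were taken from the members picked for values by library. Others also had opposite signs with TMM factors, such as LHCA5, PSAK, PSBQ2 and LHCA3, with differences of -0.53, -0.52, -0.51 and -0.48. LHCB1.1 and LHCB2.3 were instead higher in cerk1 and lower in the wild type. With library totals PSBQ2 (-0.39 in cerk1, 0.02 in the wild type) and PSAE1 (-0.31 and 0.00) also kept opposite signs.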

How the results depend on the processing

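With library totals in place of TMM factors, the median log2 ratios of the antenna, RBCS and photosystem genes became -0.42, -0.61 and -0.45 in cerk1_flg22 over cerk1_mock, -0.33, -0.40 and -0.14 in WT_flg22 over WT_mock, -3e-04, 0.070 and 0.10 in cerk1_mock over WT_mock, -0.064, -0.26 and -0.17 in cerk1_flg22 over WT_flg22 and -0.057, -0.29 and -0.29 in the response of cerk1 minus that of the wild type, and LHCA6 passed 2-fold in WT_flg22 over WT_mock (1 member). At a 1.5-fold limit 3 members were lower in WT_flg22 over WT_mock, 1 in cerk1_flg22 over WT_flg22 and 2 in the difference of response. In the lines, DESeq2 called 1 member in CERK1_3D over CERK1_3A. Leaving out 1 library at a time gave 0 to 1 called members in CERK1_3D over CERK1_WT, CERK1_3D over CERK1_3A and CERK1_3E over CERK1_3D, the 1 being PSAL without CERK1_3D replicate 2, and 0 in the other 3 comparisons. Over the same libraries left out, some log2 fold changes changed sign. RBCS3B in CERK1_3A over CERK1_WT ranged from -0.52 (without CERK1_3A replicate 2) to 2.03, in CERK1_3E over CERK1_WT from -0.078 (without CERK1_3E replicate 2) to 2.67, and in CERK1_3E over CERK1_3A from -0.77 (without CERK1_3E replicate 2) to 1.83, with -0.017 without CERK1_3A replicate 1. RBCS1A in CERK1_3A over CERK1_WT ranged from -0.014 (without CERK1_3A replicate 2) to 0.91, RBCS2B in CERK1_3E over CERK1_3A from -0.018 (without CERK1_3A replicate 2) to 1.35, PSAL in CERK1_3D over CERK1_WT from -2.27 to 0.053 (without CERK1_3D replicate 1) and PSAL in CERK1_3E over CERK1_3D from -0.024 (without CERK1_3D replicate 1) to 2.303. Causes beyond the library left out were not tested. The correlation of deviations between same-numbered libraries of different lines was -0.001 to 0.228, over 0.1 in 4 of 6 pairs of lines, so the numbers were not taken to pair the libraries, and the replicate block gave 0 called members in each of the 6 comparisons. Of the recomputed summaries 575 were labelled the same and 23 moved. A count was the same if equal or within 1.5-fold. Counts of members called or past 2-fold were mostly 0 in both settings compared, so their label could rarely change and is no measure of stability. A class median or sum was the same below a limit of shift, so its sign could change. The limit was the counting half-width in the flg22 experiment and, in the lines, the spread between libraries, which rests on 2 per line. Of the values of single members 231 were the same, 13 moved, 3 passed the threshold and 8 changed sign. In the flg22 experiment sign changes were looked for only in single values of at least 2-fold. Over all genes, DESeq2 called 14, 26, 39, 77, 29 and 40 genes where edgeR called 1, 6, 1, 5, 2 and 3, edgeR without a filter 2, 8, 3, 6, 5 and 3, and edgeR at a mean of at least 5 CPM 1, 2, 1, 4, 2 and 2. The lowest member count of the flg22 experiment was 709.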
